A study of Raphidocelis subcapitata with 72 samples.

Results

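The comparison described here sets cultures of the green alga Raphidocelis subcapitata exposed to magnetite nanoparticles (nFe3O4) for 1 h against the cultures of the same hour whose libraries are headed neg in the count table. It rests on 5 of the 17 distinct RNA-seq libraries of the series, nFe3O4 1 h replicates 1 and 3 and neg-headed 1 h replicates 1, 2 and 3, which were chosen by those headings. All libraries came from strain ATCC 22662, grown under bubbling with air and CO2 in constant white light to mid-log phase. The nFe3O4 cultures then received 100 mg/L of magnetite nanoparticles, the nZVI cultures an equal dose of zero-valent iron nanoparticles, and the controls no particles. Cells were taken after 1 h and 4 h from 3 replicate cultures per condition. The protocol describes sampling of each culture over time, so libraries of 1 h and 4 h may come from the same flasks. The labels call the replicates biological and say nothing of separate inocula, so the p-values below measure the spread between libraries. That spread was estimated over all 17 libraries, also those outside the comparison and those of 4 h.

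Raphidocelis subcapitata is a freshwater alga used widely in toxicity tests. Magnetite is an iron oxide that holds both ferrous and ferric iron, while zero-valent iron is metallic iron that corrodes in water. In algae iron is a cofactor of the photosystems, of cytochromes and of ferredoxin, and free ferrous iron can produce reactive oxygen species. Genes carry locus identifiers without names in the deposited files, and no annotation was used here, so no function is given to any gene below and no pathway was counted.

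The 4 lane columns of nFe3O4 1 h replicate 2 each held exactly the values of lane 4 of nFe3O4 1 h replicate 1. They were left out, and the nFe3O4 group has n = 2. Depth in the 5 libraries ran from 26322767 to 38347711 counts. Of 12181 genes, 11841 passed the filter on low counts. From 20.3% to 22.9% of a library's counts fell on its 10 most abundant genes.

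The headings neg and nZVI did not mark the same libraries throughout the deposit. The authors' transformed table gives values on a regularized log2 scale (rlog), and 49 of its genes could be compared with the count table. Each of the 3 neg-headed 1 h libraries of the count table correlated best with the library of the same replicate number headed nZVI in that table, with r of 0.968 to 0.982 across those genes. With the library of its own heading, r was -0.776 to -0.573. The nFe3O4 1 h libraries matched their own headings, with r of 0.985 and 0.988. Genes are not independent replicates, and these r values only describe the match. By the headings of the count table, the comparison below is magnetite against particle-free cultures. By the headings of the transformed table, the same libraries give magnetite against zero-valent iron, and the nZVI-headed libraries of the count table are then the particle-free ones. The files used here do not settle which set of headings is right. The group is called neg-headed throughout.

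At 1 h, nFe3O4 and neg-headed cultures differed in 3424 of 11841 genes, or 28.9%, by edgeR's quasi-likelihood test at a Benjamini-Hochberg adjusted p below 0.05. Of these, 1813 genes (15.3% of those tested) were higher and 1611 (13.6%) were lower in nFe3O4. The differences were mostly small. The median fold was 1.80 among the genes called higher, with quartiles of 1.49 and 2.47, and 1.64 among those called lower, with quartiles of 1.42 and 2.18. At least 2-fold differences were estimated for 679 genes called higher and 487 called lower, at least 4-fold for 202 and 140, and at least 8-fold for 66 and 32. Of those 8-fold estimates, 20 among the higher and 4 among the lower genes had no more than 3 counts in each library of the lower group, and their fitted folds depend on the prior count. Tested against a bound of 1.5-fold in place of no change, 947 genes (8%) passed, 553 higher (4.67%) and 394 lower (3.33%).

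The split between higher and lower depended on the scaling of the libraries. TMM factors, which correct library sizes for composition, lay between 1.09 and 1.10 in nFe3O4 and between 0.962 and 0.988 in the neg-headed libraries. With RLE factors 1691 genes were higher and 1719 lower. With library totals alone, an alternative added after seeing the data, 2622 were higher and 993 lower, and the median log2 fold change of all genes moved from 0.02 to 0.19. Without a bound on fold, the direction with more genes thus changed with the scaling. The direction also changed in a TMM fit of the compared groups alone, which called 3099 genes, 1509 higher and 1590 lower. Beyond 1.5-fold more genes were higher with each scaling, 526 against 422 with RLE factors and 824 against 280 with library totals alone. In the fit without nFe3O4 1 h replicate 3 the count fell to 2123 genes, and to 533 beyond 1.5-fold. Across the fits that each leave out 1 of the 5 libraries, 962 genes were called higher and 748 lower every time, or 49.9% of all calls.

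**Figure D1:**
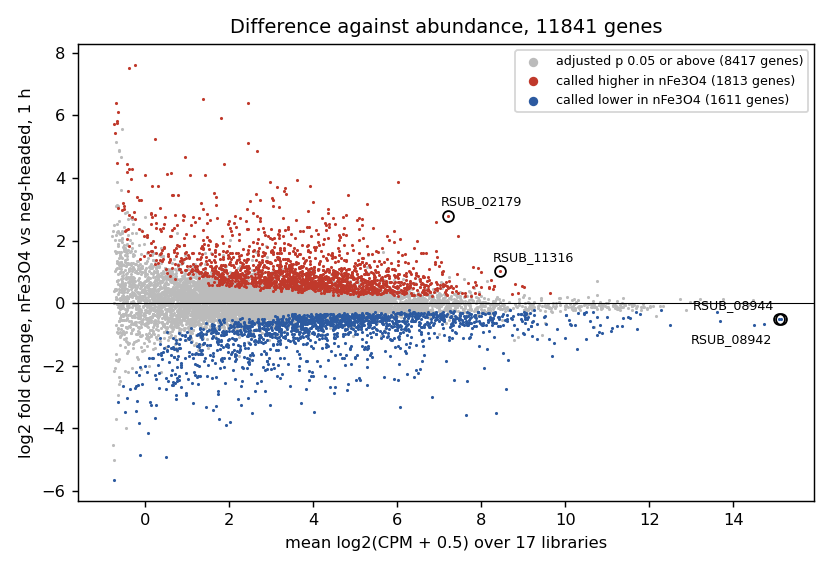
Each point is 1 of 11841 genes, with the mean log2(CPM + 0.5) over 17 libraries on the x axis and the log2 fold change of nFe3O4 against neg-headed cultures at 1 h on the y axis, with TMM scaling. The 1813 genes called higher (red) and the 1611 called lower (blue) occur at all levels, and at the most abundant end lie called-lower genes such as RSUB_08944 and RSUB_08942; with library totals alone 3 of the 10 most abundant genes were called higher.

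The lower genes included the most abundant transcripts of the alga. Among the 100 genes with the highest mean level over all libraries, 22 were lower in nFe3O4, 0 were higher and 78 were not called by edgeR. DESeq2 gave the same counts, and with library totals alone 17 were lower and 10 higher. Of the 10 most abundant genes 5 were lower and 0 higher, against 5 and 3 with library totals alone. With TMM the 5 included RSUB_08944 and RSUB_08942, and also RSUB_11265 and RSUB_11267 (log2 fold changes -0.66 and -0.69). The genes of each pair have near locus numbers and near-equal fold changes. Whether they share reads was not tested, so the 5 may not be 5 separate measurements. In the top quintile of abundance 581 genes were lower and 407 higher, 24.5% and 17.2% of its 2368 genes. In each of the other quintiles more genes were higher than lower, from 196 against 154 in the lowest to 483 against 381 in the next to highest. With RLE factors the top quintile held 608 lower and 361 higher genes. With library totals alone it held 362 lower and 635 higher, the opposite order.

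**Figure D2:**
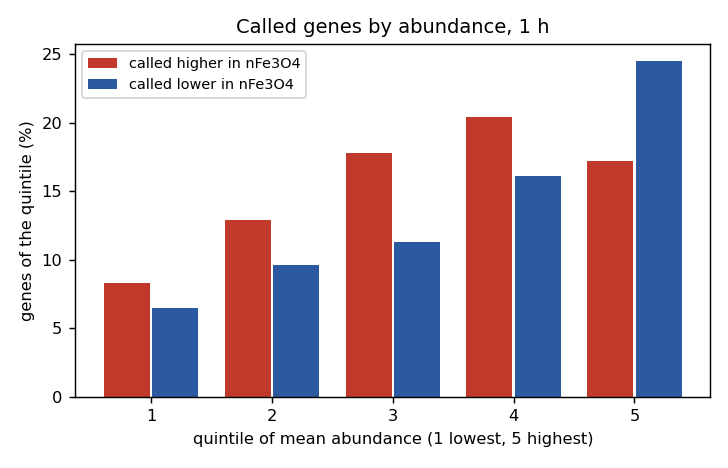
Bars give the percent of genes called higher (red) and lower (blue) in nFe3O4 at 1 h in each quintile of mean abundance over 17 libraries, with TMM scaling. Called lower exceeds called higher in the top quintile alone, at 24.5% against 17.2%, an order that reversed to 362 lower against 635 higher genes with library totals alone.

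The share of genes called also grew with abundance, from 14.8% in the lowest quintile to 41.7% in the top one. The size of the called differences went the other way, with a median absolute log2 fold change of 1.75 in the lowest quintile and 0.57 in the top one. Over all genes, called or not, the median absolute log2 fold change also fell with abundance, from 0.54 in the lowest quintile to 0.29 in the top one. The median level was 1.04 CPM in the lowest quintile and 75.7 CPM in the top one. Low counts measure a fold less precisely and let only larger folds be called. These trends are thus not read as a property of the genes, and the part of precision in them was not tested.

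The genes called lower took 24.4% and 25.2% of all counts in the 2 nFe3O4 libraries and between 32.7% and 34.4% in the 3 neg-headed libraries. The genes called higher took 6.43% and 6.70% of counts in nFe3O4 and between 3.46% and 3.55% in the neg-headed libraries. These lists were chosen on the same libraries, so the shares describe their weight in the RNA and test nothing. The lists were called with TMM scaling, and library totals alone gave 2622 higher and 993 lower genes. The shares themselves are of raw totals. Libraries outside the comparison can be set beside them. In the nZVI-headed 1 h libraries the genes called lower took 25.1% ± 1.06 (SD, n = 3) of counts and the genes called higher 6.72% ± 0.0698 (SD, n = 3), next to the nFe3O4 values. At 4 h the same genes called lower took 34.4% ± 1.07 (SD, n = 3) of counts in nFe3O4, as much as in the neg-headed libraries at 1 h, and 38.4% ± 0.892 (SD, n = 3) in the neg-headed libraries. The genes called higher took 5.58% ± 0.530 (SD, n = 3) in nFe3O4 and between 3.67% and 3.76% in the 3 neg-headed libraries at 4 h. The nZVI-headed 4 h libraries stood at 33.0% ± 1.69 and 5.53% ± 0.504 (SD, n = 3) for the lower and the higher list.

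The 4 genes named here are the 2 higher and the 2 lower ones with the largest difference in mean CPM among called genes whose groups do not overlap. Their separation at 1 h was thus a condition of the choice and adds no evidence. RSUB_02179 stood at 257 CPM in nFe3O4 1 h replicate 1 and 288 CPM in replicate 3. In the neg-headed 1 h libraries it stood at 39.9, 35.6 and 41.9 CPM. The nFe3O4 libraries were thus far above every neg-headed library, with a spread within each group that was small beside the gap. Its log2 fold change was 2.80 with an SE of 0.21 (adjusted p = 6.51e-07, edgeR), and it passed the test beyond 1.5-fold as well (adjusted p = 3.51e-06, edgeR). In the nZVI-headed 1 h libraries it was higher still, at 575 CPM ± 98.9 (SD, n = 3), and nFe3O4 minus nZVI-headed gave -1.08 on the log2 scale (adjusted p = 0.0174, edgeR).

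RSUB_11316 stood at 442 and 448 CPM in the nFe3O4 libraries and at 207, 225 and 228 CPM in the neg-headed ones. Both nFe3O4 libraries lay close together and above all neg-headed libraries. Its log2 fold change was 1.01 with an SE of 0.14 (adjusted p = 9.01e-05, edgeR). In the nZVI-headed 1 h libraries its mean level was 461 CPM ± 78.8 (SD, n = 3), a range that takes in both nFe3O4 values.

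RSUB_08944, the most abundant of the 4, stood at 23490 and 27171 CPM in nFe3O4 and at 36488, 37283 and 35314 CPM in the neg-headed libraries. RSUB_08942 stood at 22952 and 26551 CPM in nFe3O4 and at 35588, 36144 and 34402 CPM in the neg-headed libraries. For both genes the nFe3O4 libraries were below all neg-headed libraries but differed more between themselves than the neg-headed ones did. The log2 fold changes were -0.52 for RSUB_08944 (SE 0.09, adjusted p = 6.42e-04) and -0.52 for RSUB_08942 (SE 0.09, adjusted p = 6.23e-04) by edgeR's quasi-likelihood test. Neither passed the test beyond 1.5-fold, with an adjusted p of 1 for both in edgeR. The level of RSUB_08944 was between 1.02 and 1.03 times that of RSUB_08942 in every one of the 17 libraries. How reads that fit both loci were counted is not given in the sources used here, so the pair is uncertain as 2 separate measurements.

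**Figure D3:**
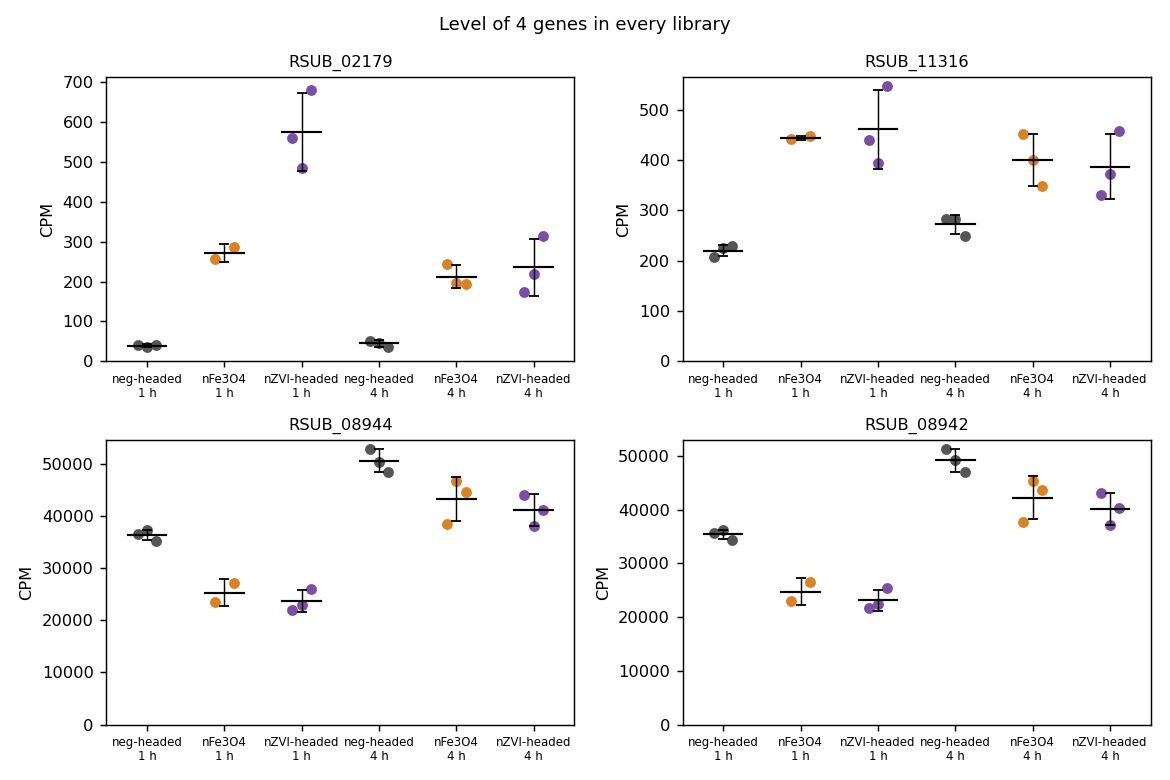
Points are the CPM of each library in the 6 groups, with the group mean (long bar) and SD (error bar), for the 4 named genes; each panel has its own linear axis from 0. RSUB_02179 and RSUB_11316 are higher and RSUB_08944 and RSUB_08942 lower in nFe3O4 than in neg-headed libraries at 1 h. The lack of overlap between these groups was a condition of the choice.

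Most called genes kept their groups apart in every library: 1807 of the 1813 higher and 1610 of the 1611 lower genes showed no overlap between the nFe3O4 and neg-headed libraries. Over all genes tested, 28.1% had both nFe3O4 libraries above all neg-headed ones and 27.1% had both below. A lack of overlap alone was thus common and does not mark the called genes. The typical gene differed by a median absolute log2 ratio between 0.32 and 0.38 in the 6 pairs of an nFe3O4 with a neg-headed library. The value was 0.18 between the nFe3O4 libraries and 0.17 in each of the 3 pairs of neg-headed libraries. The 6 pairs of an nFe3O4 with an nZVI-headed 1 h library gave values between 0.20 and 0.36. Against nZVI-headed replicates 1, 2 and 3 they were 0.22, 0.20 and 0.29 for nFe3O4 replicate 1. For nFe3O4 replicate 3 they were 0.23, 0.26 and 0.36. Genes at least 2-fold apart in these pairs numbered 147, 114 and 384 for nFe3O4 replicate 1. For nFe3O4 replicate 3 they numbered 457, 812 and 1386.

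The 2 nFe3O4 libraries differed from each other in one direction. At least 2-fold apart were 774 of 11841 genes, against 65 to 141 genes in pairs of neg-headed libraries and 74 to 591 in pairs of nZVI-headed libraries at 1 h. Gaps of like size separated nFe3O4 4 h replicate 3 from replicates 1 and 2 of its group, with 808 and 765 genes. Of these 774 genes, 760 were higher in replicate 1 and 14 in replicate 3. They occurred at all levels, with 207 in the lowest quintile of abundance and 70 in the top one. In the comparison with the neg-headed libraries, 10 of the 774 (1.29%) were called higher and 73 (9.43%) lower, beside 15.3% and 13.6% of all genes. A gap inside a group itself works against a call, so these shares are not read as a property of the genes. For the 760 genes, log2 levels were taken relative to each gene's mean over 17 libraries. Their median was 0.32 in nFe3O4 1 h replicate 1 and -1.26 in replicate 3. These genes were picked for the gap between these 2 libraries, so the gap follows from the choice. The neg-headed 1 h libraries lay between these 2, at -0.30, -0.66 and -0.48, a place that the choice also favours. The nZVI-headed 1 h libraries stood at -0.25, 0.29 and 0.74. Among the 4 h libraries, nFe3O4 replicate 3 was low too, at -1.04, while nFe3O4 4 h replicates 1 and 2 stood at 0.42 and 0.59. The part of this difference between replicates in the counts above was not tested beyond leaving out each library.

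The same contrast at 4 h uses other libraries, 3 of nFe3O4 and 3 neg-headed. They may come from the flasks sampled at 1 h, so calls shared by both hours are no independent repeat. The headings were exchanged at 4 h as well. Each neg-headed 4 h library correlated best with the same-numbered library headed nZVI in the transformed table, with r of 0.973 to 0.991. Both readings of the headings thus hold for 4 h too. There 12.3% of all genes were higher and 10.6% were lower in nFe3O4 by edgeR's test, a split of 1459 and 1261 genes that was 2208 and 716 with library totals alone. Of the 1813 genes higher at 1 h, 951 were also higher at 4 h and 4 were lower. These 951 are 52.5% of the 1 h list and 65.2% of the 4 h list. Of the 1611 genes lower at 1 h, 790 were also lower at 4 h and 15 were higher, where 790 is 49.0% of the 1 h list and 62.6% of the 4 h list. Among the 8417 genes not called at 1 h, 5.86% were higher and 5.55% lower at 4 h. The 4 h count of 2720 called genes (23%) depended on single libraries. It was 1704 in the fit that left out nFe3O4 4 h replicate 1, 1806 with nFe3O4 4 h replicate 3 left out, and 1754 when neg-headed 4 h replicate 3 was dropped.

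The differences were smaller at 4 h for the genes picked at 1 h. The median log2 fold change of the genes called higher went from 0.84 at 1 h to 0.50 at 4 h, and that of the genes called lower from -0.72 to -0.40, beside a median over all tested genes of 0.02 at 1 h. Genes picked for their value at 1 h tend to have smaller values in other libraries, so the medians alone do not measure a change with time. The test of the difference itself, the effect at 4 h minus the effect at 1 h, called 233 genes (1.97%) by edgeR. It treated the libraries of both hours as independent, though they may come from the same flasks. With library totals alone the number was 233 as well, with 109 effects higher and 124 lower at 4 h. With TMM, in 141 of them (1.19% of genes tested) the effect was higher at 4 h, of which 131 had been called lower at 1 h, and their median log2 fold change went from -1.05 to -0.03. In 92 (0.777%) the effect was lower at 4 h, of which 86 had been called higher at 1 h, and their median went from 1.67 to 0.35. The test that picked these genes uses the same 1 h and 4 h values, so the medians and the shared calls describe them and add no evidence. This count rested on few libraries: leaving out nFe3O4 1 h replicate 3 brought it to 18 and leaving out nFe3O4 4 h replicate 3 to 125. Leaving out a neg-headed library brought it to 78 for 4 h replicate 1, to 100 for 1 h replicate 3 and to 143 for 1 h replicate 1.

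**Figure D4:**
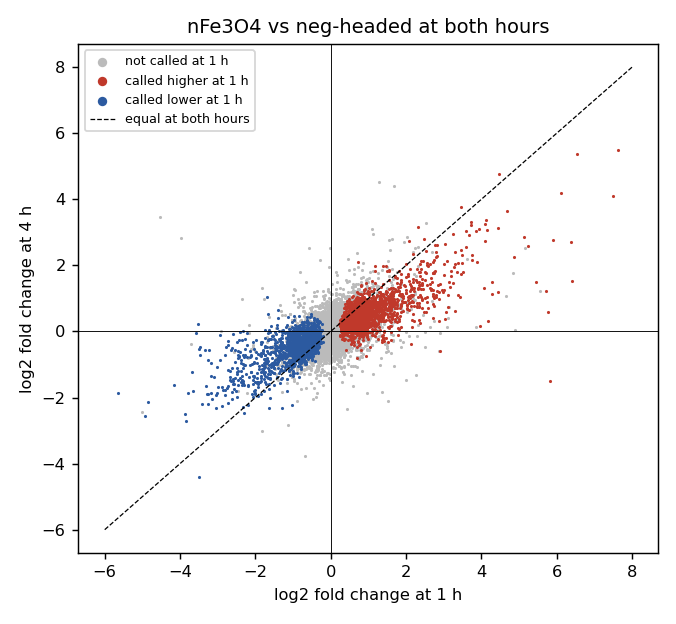
Each point is 1 gene, with the log2 fold change of nFe3O4 against neg-headed cultures at 1 h on the x axis and at 4 h on the y axis; red and blue mark genes called higher and lower at 1 h, and the dashed line marks equal values. Of the 1813 red genes 1692 lie above 0 at 4 h, and of the 1611 blue genes 1470 lie below 0. Of the 8417 genes not called at 1 h, 4324 lie above 0 and 4093 below. Libraries of both hours may come from the same flasks, so this is no independent repeat.

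RSUB_02179 stood at 4 h at 212 CPM ± 28.9 (SD, n = 3) in nFe3O4 and 44.6 CPM ± 8.43 (SD, n = 3) in the neg-headed libraries. By edgeR the log2 fold change there was 2.25, with an SE of 0.20 and an adjusted p of 1.03e-05. RSUB_11316 had a mean of 401 CPM ± 51.4 (SD, n = 3) in nFe3O4 and of 272 CPM ± 19.4 (SD, n = 3) in the neg-headed libraries. By edgeR its log2 fold change was 0.56, with an SE of 0.13 and an adjusted p of 0.00737. Both were thus higher in nFe3O4 at either hour. RSUB_08944 was at 43237 CPM ± 4224 (SD, n = 3) in nFe3O4 and 50606 CPM ± 2207 (SD, n = 3) in the neg-headed libraries at 4 h, and did not pass edgeR's test (log2 fold change -0.23, SE 0.08, adjusted p = 0.0619). RSUB_08942 had a log2 fold change of -0.22 at 4 h (SE 0.08, adjusted p = 0.0659, edgeR). For none of the 4 genes did the effect differ between the hours past the threshold, with adjusted p between 0.26 and 0.387 by edgeR.

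Under the other reading of the headings, magnetite against particle-free cultures at 1 h is the comparison of nFe3O4 with the nZVI-headed libraries of the count table. That comparison shares the 2 nFe3O4 libraries with the one above. By edgeR's test it called 365 of 11841 genes (3.08%), 222 higher (1.87%) and 143 lower (1.21%) in nFe3O4, and DESeq2 called 659. The edgeR count depended on single libraries and on the fit. Leaving out nFe3O4 1 h replicate 3 left 12 genes, and leaving out replicate 1 of that group left 158. Dropping nZVI-headed 1 h replicate 2 gave 185 genes and dropping replicate 3 gave 131, and a fit of these groups alone called 2. At an unadjusted p below 0.05 there were 2229 genes. Magnetite against particle-free cultures at 1 h is thus a comparison with 3424 called genes by one set of headings and 365 by the other.

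The authors' deposited tables of their own comparisons were set beside the calls. Those comparisons were made on libraries of this same series, so shared genes and directions are no independent evidence for the calls. Of all genes tested here, the authors' deposited tables listed 54.6% for nZVI versus nFe3O4 and 37.7% for nFe3O4 versus neg at 1 h. Of the 1813 genes called higher in nFe3O4 here, 1777 (98.0%) appeared in the authors' deposited nZVI versus nFe3O4 table for 1 h, 1776 with a negative and 1 with a positive log2 fold change. Of the 1611 genes called lower, 1600 (99.3%) were listed in that deposited table, 1599 with a positive and 1 with a negative value. The authors' deposited nFe3O4 versus neg table for 1 h listed 800 (44.1%) of the 1813 genes, 322 positive and 478 negative, and 738 (45.8%) of the 1611 genes, 269 positive and 469 negative. RSUB_02179 had a log2 fold change of -2.80 in the authors' deposited nZVI versus nFe3O4 table and of -1.08 in the nFe3O4 versus neg one. In the authors' deposited nZVI versus nFe3O4 table RSUB_11316 was at -1.02 and RSUB_08944 at 0.58.

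The transformed table also holds values for nFe3O4 1 h replicate 2, the library whose columns in the count table are copies. There its values correlated across the 49 genes with r of 0.911 with replicate 1 and 0.950 with replicate 3. RSUB_02179, which is in that table, had rlog values of 0.69, 0.76 and 0.87 in nFe3O4 1 h replicates 1, 2 and 3. It had values between -1.94 and -1.75 in the libraries headed nZVI there and between 1.59 and 2.07 in those headed neg. Of the 49 genes, 46 were called in the count table, 19 higher and 27 lower. The authors chose these genes for high variance over these samples, so neither that share nor the directions given next are independent evidence. With the libraries headed nZVI there subtracted, the nFe3O4 difference in the transformed table had the direction of the count table in all 46 genes. With those headed neg subtracted it did so in 20 of 46.

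**Figure D5:**
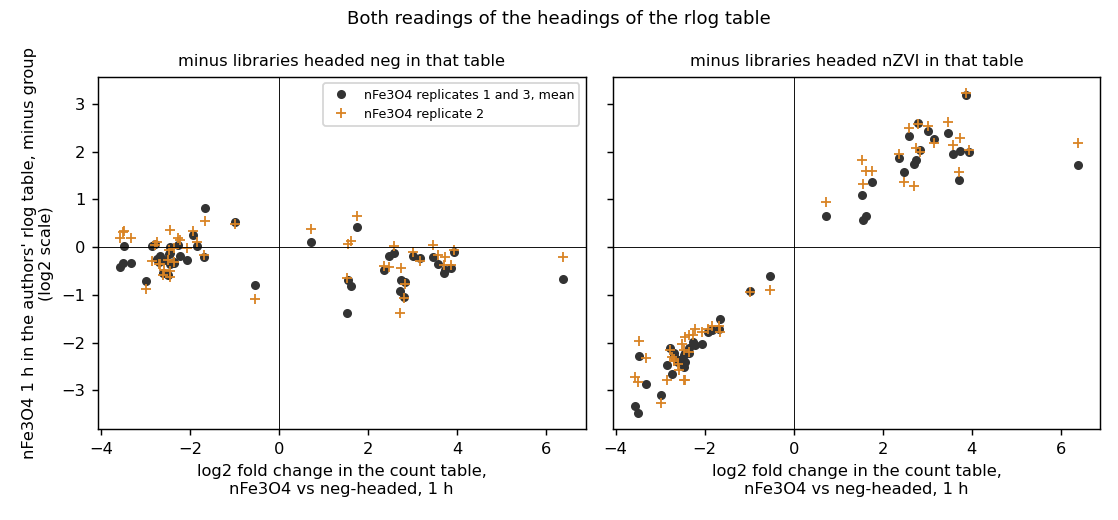
Points are 49 genes, with the log2 fold change of nFe3O4 against neg-headed libraries in the count table on the x axis and the nFe3O4 1 h value minus a group mean in the authors' rlog table (log2 scale) on the y axis, the group being headed neg there on the left and nZVI on the right. On the right both nFe3O4 replicates 1 and 3 (dots) and replicate 2 (crosses) follow the x axis, with r of 0.968 across genes for the dots, and on the left r is -0.322.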

How the data were processed

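Per the labels' protocols, polyadenylated RNA was made into strand-specific libraries and read from both ends. The submitters' processing notes name HISAT2, Trimmomatic, SAMtools, bedtools 2.27.1, bcl2fastq and DESeq2, with no order or role. How reads were assigned to genes, and on which genome build, is not given in the sources used here.

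Whole-number counts per gene and lane, not normalized, were deposited in 72 columns. The authors also gave 50 genes as regularized log values on the log2 scale, and tables of DESeq2 log2 fold changes with adjusted p-values, listing only genes under 0.05. Of low lane counts (1 to 20), 63.5% were even, so both mates of a pair may have been counted.

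The 4 lanes of a library were summed, which reads the labels' 4 sub-samples as lanes, since their headings share a sample number. Between lanes of the 5 libraries, chi-square over its degrees of freedom was 2.40 to 3.23. The 17 libraries held 26322767 to 43364641 counts. They entered one edgeR 4.0.16 model of 6 group means (limma 3.58.1, R 4.3.3), with TMM scaling and the filter by group, which removed 340 genes. Tests were quasi-likelihood tests, and glmTreat for the bound of 1.5-fold, with Benjamini-Hochberg adjustment over 11841 genes. CPM are on TMM-scaled sizes, ratios between libraries are on log2(CPM + 0.5), and standard errors come from the test statistic. Intervals between libraries were not derived from counting error. The fit was tested on a single set of simulated counts with known changes at 1 h. In that set the share of false calls lay below the threshold of 0.05 for the 1 h comparisons. For the difference between hours the share lay above it. A single set cannot settle on which side of the threshold these shares lie in general. The simulated counts had far fewer changed genes than were called at 1 h between nFe3O4 and neg-headed cultures. Most of their 1.5-fold changes were missed at 1 h. The share of false calls among the genes called in the libraries was not tested. Alternatives included RLE factors, library totals, no filter, DESeq2 1.42.0, lane 1 alone and the compared groups alone. Others were halved counts, the copied library entered, a replicate term and each library left out.

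As no file names the genes, the rule for named genes took the 2 higher and 2 lower called genes with the largest difference of mean CPM and no overlap. The comparison and the lists were chosen with earlier results of these data known.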

Additional observations from a re-analysis of the deposited data

Results flagged for a closer look

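The effect of nFe3O4 against neg-headed cultures differed between 1 h and 4 h in 233 genes by edgeR's test of the difference itself; this count fell to 18 without nFe3O4 1 h replicate 3.

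Values of nFe3O4 1 h replicate 2 in the authors' transformed table belong to no comparison of the count table. In 46 of the 46 called genes that the table holds, this library lay on the called side of the libraries headed nZVI there, and in 18 of 46 on the called side of those headed neg. The authors chose these genes for high variance over these samples, this library among them. The match in direction is thus no independent evidence.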

How the results depend on the processing

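The count of 3424 genes that differed between nFe3O4 and neg-headed cultures at 1 h was 2202 with lane 1 alone and 2123 to 3056 with a library left out. The count beyond 1.5-fold was 533 to 935 with a library left out. The 4 named genes kept their direction and passed the threshold in all 14 alternatives each. At 4 h lane 1 alone gave 1466 genes, and leaving out a library 1704 to 2923. The effect at 4 h minus that at 1 h was called in 114 genes with lane 1 alone, 415 with the copied library entered, 460 by DESeq2 and 18 to 231 with a library left out; with library totals alone, added after seeing the data, 109 were higher and 124 lower. Against the nZVI-headed libraries, the counts were 87, 946 and 659 with lane 1 alone, with the copied library entered and by DESeq2, 2 with the compared groups alone, and 12 to 353 with a library left out. Lane 1 alone has fewer counts per gene, and its filter kept 11205 genes. The cause of all these shifts was not tested. The copied library is no independent replicate, so the numbers of genes called with it entered are not read as results.

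At 1 h, deviations from the group means correlated at 0.27 between same-numbered nFe3O4 and neg-headed libraries for replicate 1 and -0.10 for replicate 3. The numbers were thus not taken as pairs. Deviations in a group of 2 libraries mirror each other, so this check is weak. Pairing between the hours was not checked. nFe3O4 1 h replicate 3 differed at least 2-fold from 4 h replicate 3 of its group in 583 genes. From 4 h replicates 1 and 2 it did so in 1503 and 1366. For nFe3O4 1 h replicate 1 the counts were 515, 421 and 997 genes from 4 h replicates 1, 2 and 3. With the replicate number as a block, 3171 genes were called at 1 h, 890 beyond 1.5-fold, 2444 at 4 h, 163 for the difference between hours and 249 against the nZVI-headed libraries. With 2 nFe3O4 libraries the counts have little protection against a single unusual library.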

Other observations

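Genes with consecutive locus numbers differed more alike than other pairs. Where both genes of a consecutive pair were called, 623 of 1024 pairs (60.8%) had the same direction, 365 with both higher and 258 with both lower in nFe3O4. At a distance of 2 the share was 51.6% of 930 pairs, at 10 it was 48.9% of 915, at 100 it was 49.4% of 911 and at 1000 it was 52.5% of 842. Across 10827 consecutive pairs the log2 fold changes correlated with r = 0.102, against 0.007 at a distance of 2. These are descriptions over genes of the same 5 libraries. The positions of the loci on the genome were not used here, and whether neighbouring loci overlap or share reads was not tested.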
